A study of Mus musculus with 30 samples.

Results

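Mouse C2C12 myoblasts that had spent 2 days in differentiation medium with 5 µM Cr(VI) were compared with cells of the same day that received 0 µM. Both groups were in DMEM with horse serum, the low-serum medium that starts differentiation in this line, and the hexavalent chromium was added to it as potassium chromate. All 3 libraries labelled with that dose and day, and all 3 of the untreated cells, were taken, which is 6 of the 30 RNA-seq libraries of the series. The other libraries come from cells at 2 µM on the same day, from each dose on days 1 and 4, and from day 0. C2C12 is an established myoblast line, so the cells are a model of muscle formation in culture without nerve, vessel or matrix of a living muscle. The labels call the replicates biological without saying whether they are separate cultures, so p values measure only the spread between libraries of the same group. For the gene calls that spread was estimated over 28 libraries of the series, not over the 6 alone.

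When serum is withdrawn, myoblasts leave the cell cycle, turn on myogenin under the control of Myod1, fuse through the membrane proteins myomaker and myomixer, and assemble sarcomeres, first with embryonic and slow or cardiac isoforms. Chromate resembles sulfate and enters cells through sulfate transporters, where its reduction to trivalent chromium gives reactive intermediates, protein adducts and DNA lesions, crosslinks among them. The NRF2 pathway answers electrophiles and oxidants, ATF4 answers amino acid shortage and other stress, and p53 answers DNA damage.

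The 6 libraries held 22.1 to 25.3 M reads and 13195 to 14240 genes above 0. Levels are given in scaled CPM, the deposited CPM (read counts divided by library depth) with a further scaling by the authors, and changes are differences of log2(scaled CPM + 1), 5 µM minus 0 µM, which understate the change of low genes. Calls were made in limma over 12946 genes, at a p below 0.05 after Benjamini-Hochberg adjustment. Of these, 3329 genes (25.7%) were called, 1440 higher (11.1%) and 1889 lower (14.6%) at 5 µM. By at least 2-fold, 134 genes (1.04%) were higher and 692 (5.35%) lower, so large changes were mostly falls. The median over all genes tested was −0.01. Myogenic identity markers (Myod1, Myf5, Msc, Des, Cdh15 and Chrna1) were read in all 6 libraries, with summed levels of 4123 to 4323 scaled CPM at 5 µM and 5003 to 5411 at 0 µM. Markers of adipocytes, leukocytes, endothelium, lung epithelium and red cells summed to less than 2 scaled CPM in each of the 6 libraries. Bone and cartilage markers summed to 84.1 to 127.4 scaled CPM at 5 µM and 73.2 to 85.1 at 0 µM, and neither of the 2 tested was called. Neuronal markers, given below, were read as well. A pair of day 1 libraries, replicate 1 of 2 µM and replicate 3 of 5 µM, carried 82 and 185 genes at 5 scaled CPM or more that stayed below 1 in every other library, and the 6 libraries compared here carried 0. That pair was left out of the shared fit, and with all 30 libraries 1326 genes were higher and 1737 lower on day 2. In bulk RNA, fewer cells of a kind and less RNA per cell cannot be told apart, which holds for every gene group below.

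**Figure D1:**
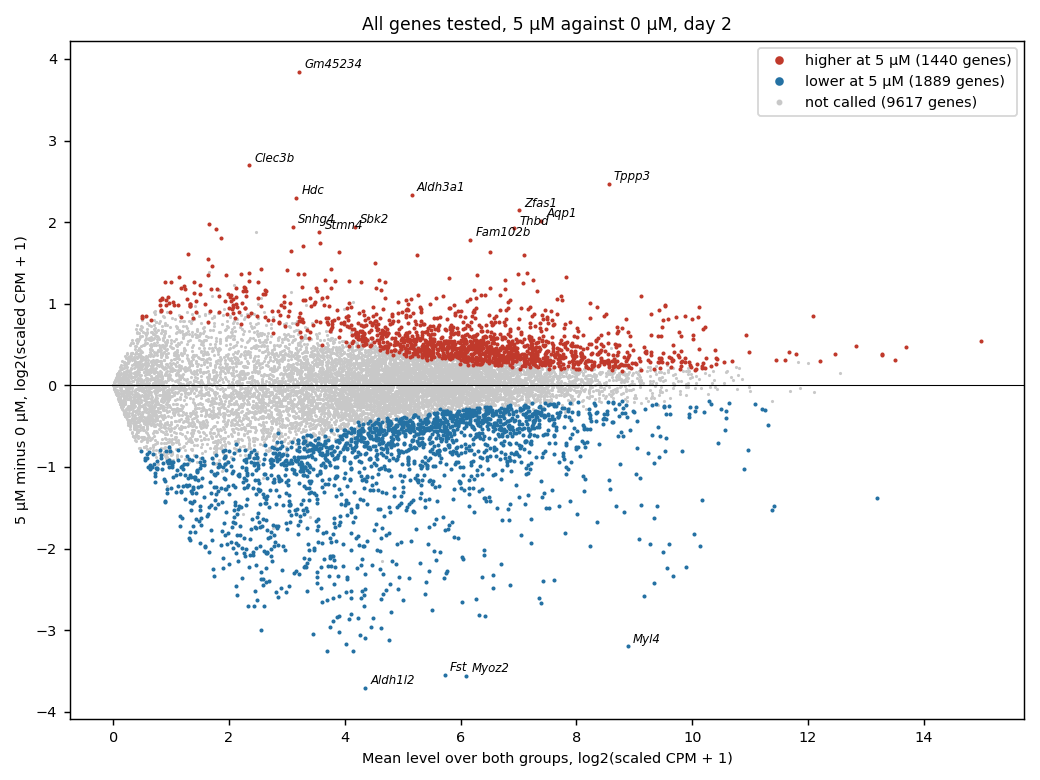
Change of each of the 12946 genes tested (vertical axis, log2(scaled CPM + 1) at 5 µM minus 0 µM) against its mean level over both groups (horizontal axis). Red points are the 1440 genes called higher, blue points the 1889 called lower and grey points the rest, and the labels mark the 12 largest rises that met the naming rule and 4 of the 12 largest falls. The cloud of blue points reaches −3.71 for Aldh1l2, while few red points lie above 2.

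Regulators, fusion genes and contractile genes of muscle were mostly lower in the chromate-treated cells. Of 12 myogenic regulators tested, 7 fell and 3 rose, with a median change of −0.38. Myogenin (Myog), the transcription factor that commits myoblasts to differentiation, was read at 274, 334 and 352 scaled CPM in the 5 µM libraries, against 1253, 1190 and 1245 in the 0 µM libraries. All treated libraries lay far below all untreated ones, a log2 change of −1.95 ± 0.10 (SE; limma, adjusted p = 2.77e-17). Mef2c, a partner of the myogenic factors at muscle promoters, had 24.1, 23.0 and 23.7 scaled CPM at 5 µM and 99.3, 115 and 99.5 at 0 µM, again without overlap (−2.10 ± 0.14). Myod1, the factor that marks committed myoblasts, fell far less, by 0.38, to 122, 145 and 142 scaled CPM at 5 µM, against 163, 172 and 199 at 0 µM. Myf5, the other myoblast determination factor, rose. It stood at 141, 131 and 138 scaled CPM in treated cells, against 40.1, 46.5 and 43.0 in untreated cells, a rise of 1.64 ± 0.12 (limma, adjusted p = 1.68e-13). Six4, a homeobox factor upstream of the myogenic factors, rose by 0.49. Tead4 (−1.39) and the RNA-binding protein Rbm24 (−0.95) were among those that fell, and Myf6 and Myc were not called. Of 10 satellite and reserve cell genes, which mark undifferentiated muscle cells, 2 rose and 3 fell (median −0.05). These shares were 20.0% and 30.0%, against 11.1% and 14.6% of all genes.

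Of 15 fusion and adhesion genes tested, 10 fell and 0 rose (median −0.71). Myomixer, listed under its older name Gm7325, was at 23.8, 28.0 and 26.4 scaled CPM at 5 µM and 128, 130.3 and 154 at 0 µM, a change of −2.35 ± 0.18 (limma, adjusted p = 5.16e-13). Myomaker, listed as Tmem8c, was at 319, 361 and 351 scaled CPM in treated cells and 728, 755 and 786 in untreated cells (−1.14 ± 0.11). The groups did not overlap for either gene of the fusion pair. Caveolin 3 (Cav3), a muscle membrane scaffold, was at 3.19, 3.96 and 7.23 scaled CPM at 5 µM, against 48.6, 44.0 and 49.7 at 0 µM (−3.12 ± 0.27). Dysferlin (Dysf), which patches torn muscle membranes, fell by 1.94, and Tmem182 by 1.84.

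Most contractile genes fell. Of 13 embryonic, slow and cardiac sarcomere genes tested, 12 fell and 0 rose, with a median of −1.94 that was the lowest of the muscle lists. Embryonic myosin heavy chain (Myh3) was at 231, 221 and 159.8 scaled CPM at 5 µM and 1075, 1174 and 996 at 0 µM (−2.42 ± 0.15; limma, adjusted p = 4.22e-15). The atrial and embryonic light chain Myl4 was at 77.2, 102 and 98.4 scaled CPM in treated cells, against 844, 821 and 890.5 in untreated cells (−3.20 ± 0.15). Slow myosin Myh7 was at 1.49, 3.48 and 2.20 scaled CPM at 5 µM and 26.2, 37.3 and 29.1 at 0 µM (−3.26 ± 0.28). In each of these 3 genes the lowest untreated library was several-fold above the highest treated one. Of 38 fast and shared sarcomere genes, 30 fell and 1 rose (median −1.48). Myozenin 2 (Myoz2), a Z-disc protein that tethers calcineurin, was at 7.70, 10.8 and 10.6 scaled CPM at 5 µM, against 115, 132 and 126 at 0 µM, a change of −3.56 ± 0.15 and the second largest fall that met the naming rule. Fast troponin T (Tnnt3) was at 165, 168 and 160.5 scaled CPM in treated cells and 1003, 960.2 and 998 in untreated cells (−2.58 ± 0.10; limma, adjusted p = 2.47e-20). The M-band protein Myom1 and the Z-disc crosslinker Actn2 both fell by 2.62. Tropomyosin 3 (Tpm3), an isoform also made outside muscle, was the single member that rose (0.24).

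Most genes that couple excitation to contraction were lower too. Of 19 triad and calcium-handling genes, 17 fell and 0 rose (median −1.11). The ryanodine receptor Ryr1, the calcium release channel of the sarcoplasmic reticulum, was at 34.3, 32.9 and 25.2 scaled CPM at 5 µM and 149, 158 and 162 at 0 µM (−2.32 ± 0.21). The calcium store protein Casq2 was at 265, 258 and 266 scaled CPM in treated cells, against 1194, 1332 and 1208 in untreated cells (−2.24 ± 0.11). Of 12 acetylcholine receptor and junction genes, 10 fell and 0 rose (median −0.76), but the receptor subunits differed in size of change. The alpha subunit Chrna1 fell by only 0.40, to 1266, 1330 and 1352 scaled CPM at 5 µM, against 1751, 1745 and 1721 at 0 µM, whereas the gamma subunit Chrng, at 119, 127 and 139 scaled CPM at 5 µM and 332, 357 and 340.3 at 0 µM, changed by −1.42. Of 18 genes of muscle energy supply, 10 fell and 1 rose (median −0.76). Muscle creatine kinase (Ckm) was at 120, 132 and 132 scaled CPM in treated cells and 344.2, 392.4 and 412.0 in untreated cells (−1.57 ± 0.12), and myoglobin (Mb) fell by 2.41.

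Of the 32 key genes, which include those above and others below, 30 were called, 8 higher and 22 lower, against 25.7% of all genes called. The replicates of the groups did not overlap in 30, as in 43.2% of all genes. The key genes were chosen with earlier results of these data known, so neither count is a test against the shares over all genes.

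**Figure D2:**
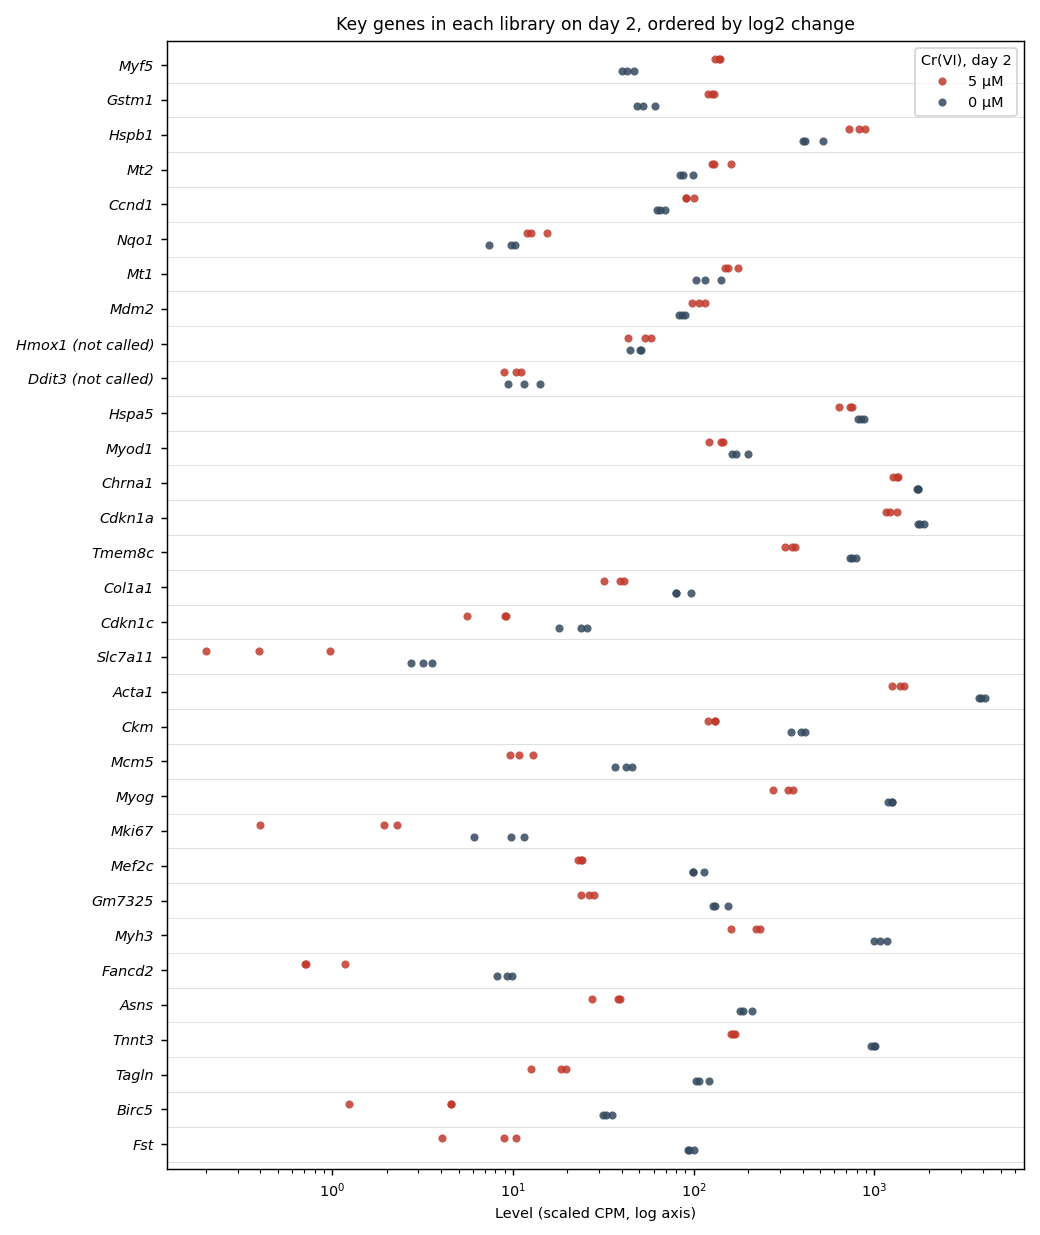
Level of 32 key genes in each library on day 2 (horizontal axis, scaled CPM on a log axis), with the 3 libraries at 5 µM in red above the 3 at 0 µM in dark blue. Genes run from the largest rise (Myf5) to the largest fall (Fst), and the groups overlap only for Hmox1 and Ddit3, the 2 genes not called.

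Division genes fell as a block. All 35 genes of mitosis and the spindle that were tested fell, each by at least 2-fold, with a median of −2.42. Survivin (Birc5), a subunit of the chromosomal passenger complex, was at 4.55, 4.52 and 1.23 scaled CPM at 5 µM, against 35.2, 32.6 and 31.3 at 0 µM (−3.06 ± 0.31; limma, adjusted p = 1.13e-09). The centromere histone Cenpa was at 1.31, 1.04 and 2.03 scaled CPM in treated cells and 20.8, 19.7 and 26.6 in untreated cells (−3.26 ± 0.22). The proliferation marker Mki67 was at 1.93, 2.28 and 0.397 scaled CPM at 5 µM and 6.08, 11.5 and 9.70 at 0 µM (−2.05 ± 0.31). Replicate 3 of the treated cells was the lowest for Birc5 and Mki67 but not for Cenpa, and the groups did not overlap for any of the 3. Of 35 G1/S and replication genes, 30 fell and 0 rose (median −1.10). Thymidine kinase Tk1, which salvages thymidine in S phase, was at 2.98, 2.68 and 1.28 scaled CPM at 5 µM, against 24.6, 34.1 and 25.8 at 0 µM (−3.16 ± 0.24), and the replicative helicase subunit Mcm5 fell by 1.81. Iqgap3, a scaffold protein linked to proliferation and outside both lists, fell by 3.10.

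Of the 5 CDK inhibitors tested, 4 were lower at 5 µM. Of 14 genes for CDK inhibitors, D cyclins, their kinases and the Rb family, 9 fell and 3 rose (median −0.55). The inhibitor p21 (Cdkn1a), induced by both Myod1 and p53, was at 1158, 1211 and 1325 scaled CPM at 5 µM, against 1746, 1787 and 1879 at 0 µM (−0.55 ± 0.08; limma, adjusted p = 2.21e-06). The related inhibitor p57 (Cdkn1c) was at 5.56, 9.00 and 9.17 scaled CPM in treated cells and 25.6, 18.0 and 23.8 in untreated cells (−1.41 ± 0.24). Cyclin D1 (Ccnd1), which drives cells into the cycle and is normally turned down during differentiation, was at 91.1, 91.1 and 99.8 scaled CPM at 5 µM and 69.0, 65.2 and 62.9 at 0 µM (0.51 ± 0.10). The treated libraries were thus the lower ones for both inhibitors and the higher ones for the cyclin, without overlap. The inhibitor p27 (Cdkn1b) was not called, with means of 84.97 scaled CPM in treated and 73.01 in untreated cells (0.21; limma, adjusted p = 0.191), and Cdkn2c and Cdkn2d fell by 0.69 and 1.06. The Rb family protein Rbl2 rose by 0.29 (limma, adjusted p = 0.0482). Cdk6, a partner kinase of cyclin D1, rose by 0.65 and the S-phase kinase Cdk2 fell by 0.79.

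Repair genes that fell included members of the Fanconi and homologous recombination pathways. Of 30 genes of crosslink and recombination repair, 16 fell and 1 rose (median −0.92). Fancd2, the central protein of the Fanconi anaemia pathway, was at 1.18, 0.720 and 0.705 scaled CPM at 5 µM, against 8.18, 9.92 and 9.24 at 0 µM (−2.44 ± 0.26; limma, adjusted p = 2.23e-09). Rad54l, Rad51ap1 and Exo1, which act in homologous recombination, fell by 1.96, 2.15 and 1.88. These genes were low in both groups. A filter that kept only genes averaging at least 5 scaled CPM over the 6 libraries removed Fancd2, Rad54l, Rad51ap1 and Exo1, among others. With it 4 members of the list were called lower, the removed ones not being tested. Of 31 genes of excision, mismatch and end-joining repair, 9 fell (29.0%, against 14.6% of all genes) and 2 rose (6.5%, against 11.1%). Their median was −0.15, and without replicate 3 of the treated cells 5 fell. The glycosylase Neil3, known from replicating cells, was at 0, 0.640 and 0.353 scaled CPM at 5 µM and 5.83, 4.66 and 4.98 at 0 µM (−2.23 ± 0.35). The difference between the repair lists was not tested.

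Targets of p53 did not move one way. Of 32 tested, 6 rose (18.8%, against 11.1% of all genes) and 5 fell (15.6%, against 14.6%), with a median of 0.14, and without replicate 1 of the treated cells 3 rose. Plk2, a kinase induced by stress, was at 271, 247 and 222 scaled CPM at 5 µM, against 128, 124 and 139.8 at 0 µM (0.91 ± 0.09; limma, adjusted p = 6.58e-10). Trp53inp1, which takes part in p53-driven death and autophagy, rose by 0.92 and the RNA-binding protein Zmat3 by 0.72. Mdm2, the ubiquitin ligase that limits p53, was at 116, 97.3 and 106 scaled CPM in treated cells and 90.0, 86.6 and 82.6 in untreated cells, a change of 0.30 ± 0.10 (limma, adjusted p = 0.0196). That call was lost without treated replicate 1 (adjusted p = 0.124) or untreated replicate 3 (adjusted p = 0.0835), both in limma. Among the falls were Cdkn1a, described above, and Ckap2 (−1.91), a spindle protein.

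NRF2 targets rose in part. Of 35 tested, 18 rose (51.4%, against 11.1% of all genes) and 1 fell, with a median of 0.37. Aldh3a1, an aldehyde dehydrogenase that oxidises lipid aldehydes, was at 55.5, 57.0 and 62.8 scaled CPM at 5 µM, against 11.9, 9.42 and 11.1 at 0 µM (2.33 ± 0.15; limma, adjusted p = 1.75e-14). The glutathione transferase Gstm1 was at 129, 119.5 and 126 scaled CPM in treated cells and 48.7, 52.7 and 61.0 in untreated cells (1.20 ± 0.10), although reads of the closely similar Gstm family members may be split between them. Transketolase (Tkt), of the pentose phosphate pathway that supplies NADPH, rose by 1.59, and the epoxide hydrolase Ephx1 by 1.16. Heme oxygenase (Hmox1) was at 43.5, 53.6 and 57.8 scaled CPM at 5 µM and 51.2, 44.5 and 50.4 at 0 µM, with overlapping groups and no call (0.08 ± 0.11; limma, adjusted p = 0.691). The quinone reductase Nqo1 was at 15.4, 12.0 and 12.6 scaled CPM in treated cells, against 7.39, 10.3 and 9.74 in untreated cells, and its call (0.50 ± 0.19; limma, adjusted p = 0.045) was lost under 12 of 24 other settings, with adjusted p values of 0.0514 to 0.224 in limma. These included the fits without untreated replicate 1 (adjusted p = 0.224), untreated replicate 3 (0.0628), treated replicate 1 (0.192) and treated replicate 3 (0.0653). The cystine importer Slc7a11, a target of both NRF2 and ATF4, was the member that fell. It stood at 0.394, 0.200 and 0.970 scaled CPM at 5 µM and 3.57, 2.74 and 3.18 at 0 µM (−1.48 ± 0.34).

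Metal-binding and metal-transport genes were mixed, with 4 of 17 higher and 4 lower (median 0.10). Each share was 23.5%, against 11.1% of all genes higher and 14.6% lower. The metallothioneins Mt1 and Mt2, small metal-binding proteins induced by zinc and cadmium, rose by 0.42 ± 0.11 and 0.61 ± 0.12. Mt2 was at 126, 129 and 160.1 scaled CPM in treated cells and 83.9, 86.7 and 99.5 in untreated cells. Both calls were lost when the pair of day 1 libraries with transcripts read nowhere else entered the fit, with adjusted p values of 0.256 for Mt1 and 0.201 for Mt2 in limma. The transferrin receptor Tfrc, which imports iron, was at 196, 167 and 167 scaled CPM at 5 µM, against 398, 388 and 385 at 0 µM (−1.14 ± 0.08; limma, adjusted p = 1.61e-13). The sulfate transporters Slc26a2 and Slc26a11 were not called. Slc26a6, an anion exchanger of the same family, averaged 1.11 scaled CPM at 5 µM and 3.38 at 0 µM (−1.05; limma, adjusted p = 0.0238), a call lost under 8 other settings, among them edgeR (adjusted p = 0.0522) and each left-out replicate but untreated replicate 1. Over all settings 2 to 4 of the 17 were higher and 2 to 4 lower.

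**Figure D3:**
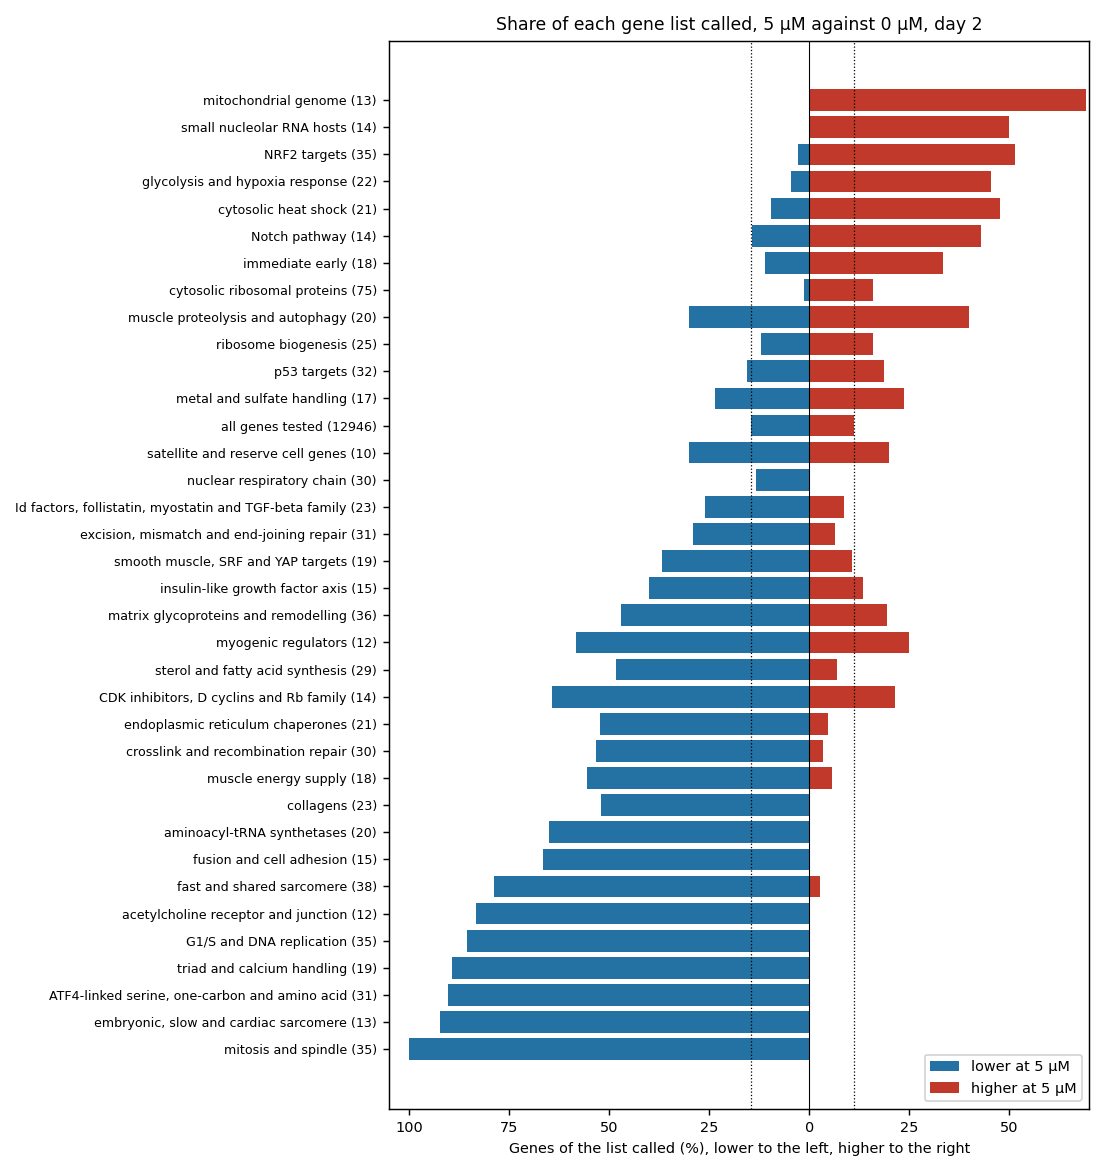
Percentage of the tested genes of each list called higher (red, to the right) or lower (blue, to the left) at 5 µM, for lists with at least 10 genes tested, whose number is in brackets. Dotted lines mark the shares over all genes, 14.6% lower and 11.1% higher. Mitosis, early sarcomere and ATF4-linked genes lie at the bottom with nearly all members lower, and genes of the mitochondrial genome and hosts of small nucleolar RNAs lie at the top.

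Genes of amino acid supply fell together. Of 31 ATF4-linked genes of serine, one-carbon and amino acid metabolism, 28 fell and 0 rose (median −1.27). Asparagine synthetase (Asns), a standard ATF4 target, was at 27.5, 39.2 and 38.0 scaled CPM at 5 µM, against 188, 211 and 180.5 at 0 µM (−2.45 ± 0.11; limma, adjusted p = 2.54e-19). Aldh1l2, a mitochondrial folate dehydrogenase, was at 1.71, 1.64 and 2.42 scaled CPM in treated cells and 36.1, 38.3 and 36.2 in untreated cells, the largest fall that met the naming rule (−3.71 ± 0.21). Mthfd2, the mitochondrial enzyme before it in the folate cycle, was at 27.8, 29.5 and 25.4 scaled CPM at 5 µM and 152, 165 and 159.8 at 0 µM (−2.49 ± 0.15). No treated library reached the lowest untreated one in any of these genes. The stress factor Ddit3, which ATF4 also induces, was at 10.5, 8.96 and 11.1 scaled CPM in treated cells, against 14.1, 11.5 and 9.41 in untreated cells, with overlapping groups and no call (−0.17 ± 0.23; limma, adjusted p = 0.65). Of 20 cytosolic aminoacyl-tRNA synthetases, which load amino acids onto tRNA, 13 fell and 0 rose (median −0.47). Those for cysteine (Cars), methionine (Mars), isoleucine (Iars) and leucine (Lars) fell by 0.94, 0.92, 0.88 and 0.88.

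As examples of an amino acid gene and a sarcomere gene that fell, Asns and the skeletal actin gene Acta1 were taken, and the 250 bases before their starts are shown, taken from the RefSeq table for GRCm38.p6. The Asns window lies at chr6:7693210-7693459 on the minus strand and the Acta1 window at chr8:123894776-123895025 on the minus strand, and capitals mark the motifs found.
Asns: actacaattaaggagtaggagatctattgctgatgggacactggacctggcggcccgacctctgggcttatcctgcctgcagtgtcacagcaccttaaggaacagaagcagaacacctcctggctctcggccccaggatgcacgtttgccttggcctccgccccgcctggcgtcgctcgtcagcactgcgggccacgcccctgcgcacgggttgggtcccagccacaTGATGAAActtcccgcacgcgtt
Acta1: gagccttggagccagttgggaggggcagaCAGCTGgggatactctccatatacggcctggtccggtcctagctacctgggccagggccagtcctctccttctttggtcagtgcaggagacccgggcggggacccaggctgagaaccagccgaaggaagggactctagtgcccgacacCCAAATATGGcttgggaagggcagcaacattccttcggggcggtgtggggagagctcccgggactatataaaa
In the Asns window the capitals from base 228 are a match to TGATGNAA, the core shared by ATF4 and C/EBP elements, which 3.45% of the 32851 windows of this length in the table hold on either strand. In the Acta1 window the capitals from base 30 are the E-box form CAGCTG, bound by myogenic factors and held by 13% of windows, and those from base 178 are a CArG box, the site of serum response factor, held by 1.47%. This strict box, with A or T at each inner base, and the limit of 250 bases were set after the table was seen, and a looser form with any base at the inner positions was held by 67.1%. Acta1 itself was at 1252, 1465 and 1380 scaled CPM at 5 µM, against 3790, 3900 and 4108 at 0 µM (−1.53 ± 0.08; limma, adjusted p = 3.23e-17). The windows of Myog (searched for CAGCTG), Birc5 (the cell cycle element TTTGAA and its form TTCGAA, with the box CCAAT) and Gstm1 (TGACNNNGC) held no match on either strand, nor did that of Asns for CCAAT. Gstm1 had 2 windows, of which only the first listed was searched. Tagln was also looked up. A match describes these letters only.

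Calls went mostly down for chaperones of the endoplasmic reticulum and mostly up for those of the cytosol. Of 21 endoplasmic reticulum chaperones and folding enzymes, 11 fell and 1 rose (median −0.26). Herpud1, of the degradation machinery of that compartment, was at 79.7, 71.1 and 76.7 scaled CPM at 5 µM, against 148, 142 and 143 at 0 µM (−0.92 ± 0.10; limma, adjusted p = 1.09e-08). The disulfide isomerase Pdia6 fell by 0.76 and the chaperone Hspa5 by 0.25, the Hspa5 call being lost without treated replicate 3 (limma, adjusted p = 0.0702). Of 21 cytosolic and mitochondrial heat shock genes, 10 rose and 2 fell (median 0.22). The small heat shock protein Hspb1 was at 719, 823 and 886 scaled CPM in treated cells and 412, 401 and 519 in untreated cells (0.87 ± 0.12; limma, adjusted p = 6.83e-07). Hsp90aa1, the inducible cytosolic Hsp90, was at 1369, 1240 and 1203 scaled CPM at 5 µM and 953, 955 and 897 at 0 µM (0.44 ± 0.07). Hspa1b rose by 0.75, with reads that cannot be told from those of its near copy Hspa1a.

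Calls among matrix genes and smooth muscle markers were more often lower than higher, and many members were not called. Of 23 collagens, 12 fell and 0 rose (median −0.34). Among those not called, Col7a1, Col8a2, Col11a1 and Col13a1 averaged below 1 scaled CPM in both groups. Over the other settings the median of the list ran from −1.15 to −0.265. Col1a1, the fibrillar collagen of connective tissue, was at 32.0, 41.0 and 38.9 scaled CPM at 5 µM, against 80.0, 80.2 and 96.2 at 0 µM (−1.18 ± 0.15; limma, adjusted p = 1.95e-07), and the microfibril collagens Col6a1 and Col6a2 fell by 1.37 and 1.49. Of 36 matrix glycoproteins and remodelling genes, 17 fell and 7 rose (median −0.20). The metalloprotease Adam12, linked to myoblast fusion, was at 0.175, 0.0800 and 0.661 scaled CPM in treated cells and 11.6, 9.05 and 7.57 in untreated cells (−3.00 ± 0.31). Clec3b, which encodes the secreted protein tetranectin, was at 7.92, 7.40 and 8.16 scaled CPM at 5 µM and 0.164, 0.183 and 0.837 at 0 µM (2.69 ± 0.27). Of 19 smooth muscle, serum response factor and YAP targets, 7 fell and 2 rose (median −0.17). These shares were 36.8% and 10.5%, against 14.6% and 11.1% of all genes. Transgelin (Tagln), an actin-binding protein of smooth muscle that myoblasts also make, was at 12.5, 19.8 and 18.4 scaled CPM at 5 µM, against 108, 102 and 122 at 0 µM (−2.66 ± 0.15; limma, adjusted p = 1.57e-16). Connective tissue growth factor (Ctgf), a secreted YAP target of the same list, was at 43.95, 52.01 and 58.37 scaled CPM in treated cells and 25.0, 26.8 and 27.0 in untreated cells (0.94 ± 0.15). Treated libraries were the lower ones for Tagln and the higher ones for Ctgf.

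Follistatin and Igf2, secreted growth regulators of muscle, fell, while most genes listed with them were not called lower. Follistatin (Fst), which binds myostatin and activin and so promotes muscle growth, was at 8.89, 10.4 and 4.06 scaled CPM at 5 µM, against 94.6, 101 and 93.1 at 0 µM (−3.55 ± 0.21; limma, adjusted p = 7.82e-16). It was the largest fall among the 32 key genes. Of the 23 Id, follistatin, myostatin and TGF-beta family genes tested with it, 6 fell and 2 rose (median −0.10), and Tgfb3 fell by 1.46. These shares were 26.1% and 8.7%, against 14.6% and 11.1% of all genes. Of 15 genes of the insulin-like growth factor axis, 6 fell (40.0%) and 2 rose (13.3%), with a median of −0.27. Igf2, an autocrine growth factor of differentiating myoblasts, was at 46.3, 42.1 and 46.4 scaled CPM in treated cells and 279, 291 and 266 in untreated cells (−2.61 ± 0.20; limma, adjusted p = 1.65e-12). H19, the noncoding RNA of the same imprinted locus, fell by 1.37. The adaptor Irs1, which passes on the signal of the insulin and IGF1 receptors, was at 211, 214 and 160.3 scaled CPM at 5 µM, against 117, 112 and 119 at 0 µM (0.73 ± 0.13).

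Of 14 Notch genes, 6 were higher (42.9%, against 11.1% of all genes) and 2 lower (14.3%, against 14.6%). The share of falls was near the background, and the median was 0.17. Heyl, a Notch target, was at 121, 145 and 140 scaled CPM at 5 µM, against 82.8, 76.2 and 76.2 at 0 µM (0.78 ± 0.14; limma, adjusted p = 2.92e-05). The ligand Jag1 rose by 1.20 and the ligase Dtx4 by 0.81. Hes6, which opposes Hes1 and promotes differentiation, was at 75.5, 66.4 and 77.4 scaled CPM in treated cells and 177, 148 and 194 in untreated cells (−1.22 ± 0.12). Of 18 immediate early genes, 6 rose (33.3%) and 2 fell (11.1%, against 14.6% of all genes), with a median of 0.15. Jun was at 0.87, Klf6 at 0.83 and Dusp1 at 0.82. Of 20 genes of muscle proteolysis and autophagy, 8 rose and 6 fell (median 0.21). The pair of muscle ubiquitin ligases known from atrophy split. Atrogin-1 (Fbxo32) was at 221, 204 and 185 scaled CPM at 5 µM and 125, 134 and 124 at 0 µM (0.67 ± 0.12), whereas MuRF1 (Trim63) was at 18.8, 14.9 and 19.4 scaled CPM in treated cells and 50.6, 53.7 and 56.1 in untreated cells (−1.55 ± 0.23). The autophagy receptor Sqstm1, also an NRF2 target, rose by 0.98.

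Glycolysis and hypoxia genes rose in 10 of 22 cases and fell in 1 (median 0.20). Ndrg1, induced by hypoxia and metals, was at 189, 183 and 209 scaled CPM at 5 µM, against 94.0, 100.4 and 101 at 0 µM (0.97 ± 0.09; limma, adjusted p = 1.26e-10). The phosphofructokinase Pfkp rose by 0.77 and hexokinase Hk1 by 0.54, while the oxygen sensor Egln3, which muscle differentiation also induces, fell by 1.12. Of 29 genes of sterol and fatty acid synthesis, 14 fell and 2 rose (median −0.22), with Elovl6, which lengthens fatty acids, down by 0.99.

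Of the 13 protein genes of the mitochondrial genome, 9 rose and 0 fell (median 0.38). The ATP synthase subunit mt-Atp6 was at 8686, 7404 and 9485 scaled CPM at 5 µM, against 6270, 6660 and 5288 at 0 µM (0.49 ± 0.12; limma, adjusted p = 0.00139). This count ranged from 2 to 11 over 24 other settings. It was 2 with a replicate block on the 6 libraries, 3 without untreated replicate 3, 4 without treated replicate 3, 4 with no filter, 5 without treated replicate 1 and 5 with quantile normalization. All 37 genes of that genome took 10.3 ± 0.86% of reads at 5 µM and 7.83 ± 0.71% at 0 µM (SD, n = 3 each), without overlap, and an exact two-sided permutation test gave p = 0.1, the smallest that 3 against 3 allows. Of 30 nuclear genes of the respiratory chain, 0 rose and 4 fell (13.3%, against 14.6% of all genes), a share of falls near the background (median 0.00). The falls numbered 1 without treated replicate 1 and 7 without treated replicate 3. Cytosolic ribosomal proteins rose in 12 of 75 cases (16.0%, against 11.1% of all genes), close to the background and ranging from 2 without treated replicate 3 to 21 in the fit on the 9 day 2 libraries. Reads of ribosomal protein genes may be shared with pseudogenes.

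Host transcripts of small nucleolar RNAs rose in 7 of 14 cases and fell in 0 (median 0.69). Such spliced hosts carry the nucleolar RNAs in their introns and are usually degraded when translated. Zfas1 was at 225, 184 and 220.4 scaled CPM at 5 µM, against 43.7, 45.0 and 51.0 at 0 µM (2.15 ± 0.14; limma, adjusted p = 1.06e-14). Gas5 was at 172, 174 and 198 scaled CPM in treated cells and 72.4, 65.2 and 71.4 in untreated cells (1.37 ± 0.12). Snhg4 was at 12.5, 13.2 and 12.2 scaled CPM at 5 µM and 3.25, 2.24 and 2.22 at 0 µM (1.95 ± 0.26). The treated libraries were the higher ones in each case. Because the strand of the libraries is not given in the sources used here, reads of a host that lies antisense to another gene, as Zfas1 does, cannot be told from that gene's. Of 25 ribosome biogenesis genes, 4 rose (16.0%, against 11.1% of all genes) and 3 fell (12.0%, against 14.6%), shares near the background (median 0.10), with the nucleolar chaperone Npm1 up by 0.80.

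Several of the largest rises belonged to no list. Tppp3, a tubulin-binding protein, was at 592, 610.2 and 707 scaled CPM at 5 µM, against 112, 105 and 124 at 0 µM (2.47 ± 0.12; limma, adjusted p = 5.22e-18). The water channel Aqp1 was at 259, 277 and 268 scaled CPM in treated cells and 67.9, 66.3 and 62.4 in untreated cells (2.02 ± 0.09). Histidine decarboxylase (Hdc), which makes histamine, was at 11.2, 15.2 and 15.1 scaled CPM at 5 µM and 2.01, 1.78 and 2.17 at 0 µM (2.30 ± 0.28). In all of these the treated libraries lay several-fold above the untreated ones. Thrombomodulin (Thbd), the endothelial thrombin receptor, was at 195, 190.3 and 186 scaled CPM at 5 µM, against 49.1, 51.7 and 47.3 at 0 µM (1.93 ± 0.11), while the whole list of other endothelial markers stayed below 2 scaled CPM in sum. Stmn4, Sbk2 and Fam102b rose by 1.88, 1.94 and 1.78. Gm45234 was at 27.7, 4.64 and 17.4 scaled CPM in treated cells and listed at 0 in all 3 untreated libraries, so no fold is given, and its call was lost with no filter (limma, adjusted p = 0.0566). Summed neuronal markers were 158.5 to 170.8 scaled CPM at 5 µM and 86.3 to 91.7 at 0 µM, with the tubulin Tubb3 and Stmn2 higher among 3 tested, and 3 of the 7 neuronal markers were at 0 in all 6 libraries. Over 24 other settings 1 to 3 were called higher. It was 1 without untreated replicate 1, treated replicate 1 or treated replicate 2, and with a replicate block on the 6 libraries. The part of neuronal markers in the rises of Tppp3 and Stmn4 was not tested.

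The cells at 2 µM on the same day place these changes on a dose scale, although both doses share the untreated libraries. At 2 µM against 0 µM, 56 genes were higher (0.433%) and 69 lower (0.533%), while at 5 µM against 2 µM 685 were higher (5.29%) and 1173 lower (9.06%). Of the 32 key genes, 28 differed between 5 and 2 µM (7 higher, 21 lower at 5 µM) and 11 between 2 and 0 µM (2 higher, 9 lower at 2 µM). With all 30 libraries the calls between 5 and 2 µM were lost for Mdm2 (limma, adjusted p = 0.0575), Mt1 (0.447), Mt2 (0.205) and Col1a1 (0.219). That of Mdm2 was also lost with quantile normalization (limma, adjusted p = 0.0502). For 27 of the 32 key genes the mean at 2 µM lay between those at the other doses. The share over all genes was not counted, and the key genes were chosen with earlier results of these data known. Fst averaged 96.1, 45.9 and 7.78 scaled CPM at 0, 2 and 5 µM. Tagln averaged 111, 55.9 and 16.9 scaled CPM, so each step was a fall. Zfas1 averaged 46.6, 78.3 and 209.7 scaled CPM, with most of the rise above 2 µM. Cdkn1a averaged 1804, 1856 and 1231 scaled CPM and was not called at 2 µM against 0 µM. All 35 mitosis genes were lower at 5 µM than at 2 µM and 5 were lower at 2 µM than at 0 µM, and of the 31 ATF4-linked genes 25 and 2 were.

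**Figure D4:**
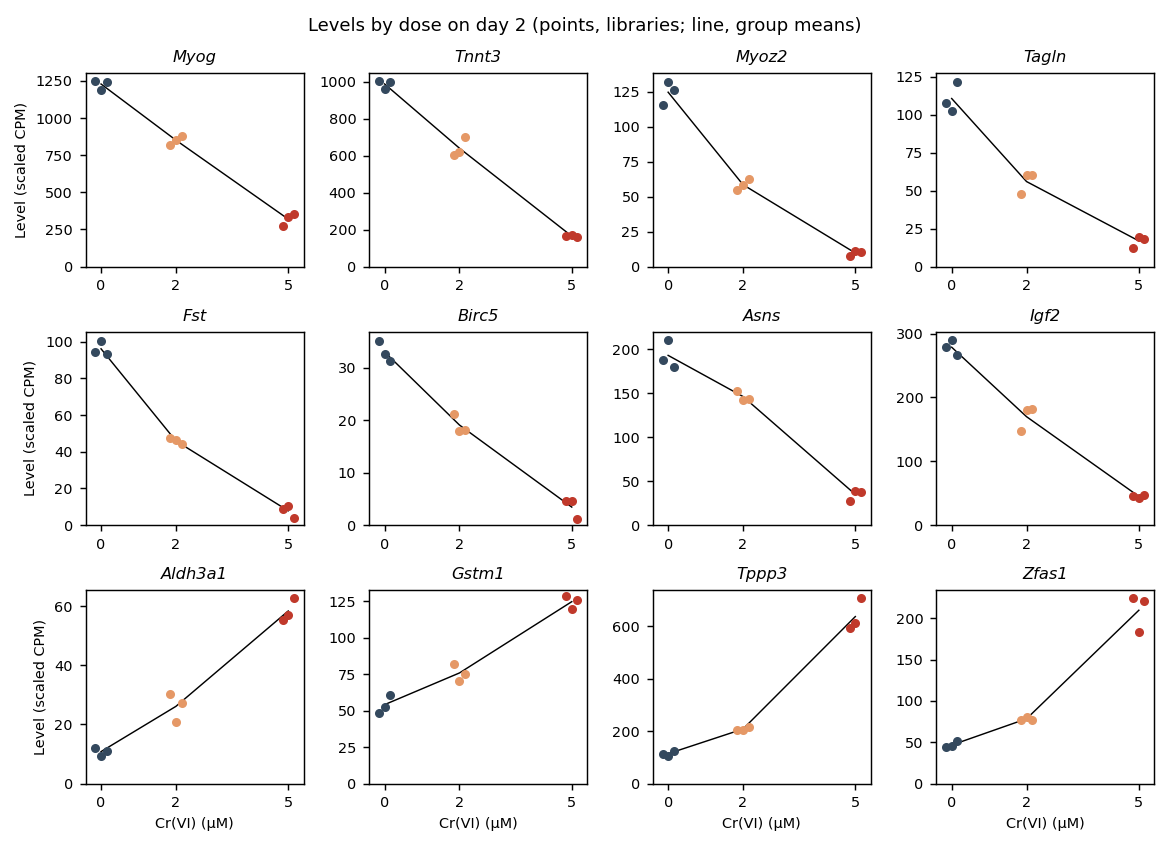
Levels of 12 genes on day 2 (vertical axes, scaled CPM from 0) against the dose of Cr(VI) (horizontal axes, 0, 2 and 5 µM to scale), with a point for each library and a line through the group means. The 8 falls include Fst, which averaged 96.1, 45.9 and 7.78, and the 4 rises in the bottom row include Zfas1, steeper between 2 and 5 µM.

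Whether the effect of 5 µM on day 2 was already there on day 1 was tested as a difference of effects in the same fit, with 2 libraries at 5 µM on day 1. Of all genes, 346 (2.67%) had an effect that was higher on day 2 than on day 1 and 335 (2.59%) one that was lower. All 35 mitosis genes had a lower effect on day 2, also with all 30 libraries, and on day 1 itself 2 of them were lower and 2 higher at 5 µM (all genes, 8.79% lower and 4.27% higher). Of the 35 replication genes 21 were lower on day 1 itself, with a lower effect on day 2 in 4 (8 with all 30 libraries). Birc5 averaged 20.7 scaled CPM at 5 µM (n = 2), against 28.9 at 0 µM (n = 3), on day 1, and 3.44 against 33.0 on day 2. Between the days the treated mean of Birc5 changed more than the untreated one. The reverse held for the mean of Asns, which was 17.2 scaled CPM at 5 µM and 41.5 at 0 µM on day 1, and 34.9 at 5 µM and 193 at 0 µM on day 2. Of the 31 ATF4-linked genes 16 had a lower effect on day 2 (15 with all 30 libraries). Fst likewise averaged 3.24 scaled CPM at 5 µM and 6.73 at 0 µM on day 1, and 7.78 at 5 µM and 96.1 at 0 µM on day 2.

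**Figure D5:**
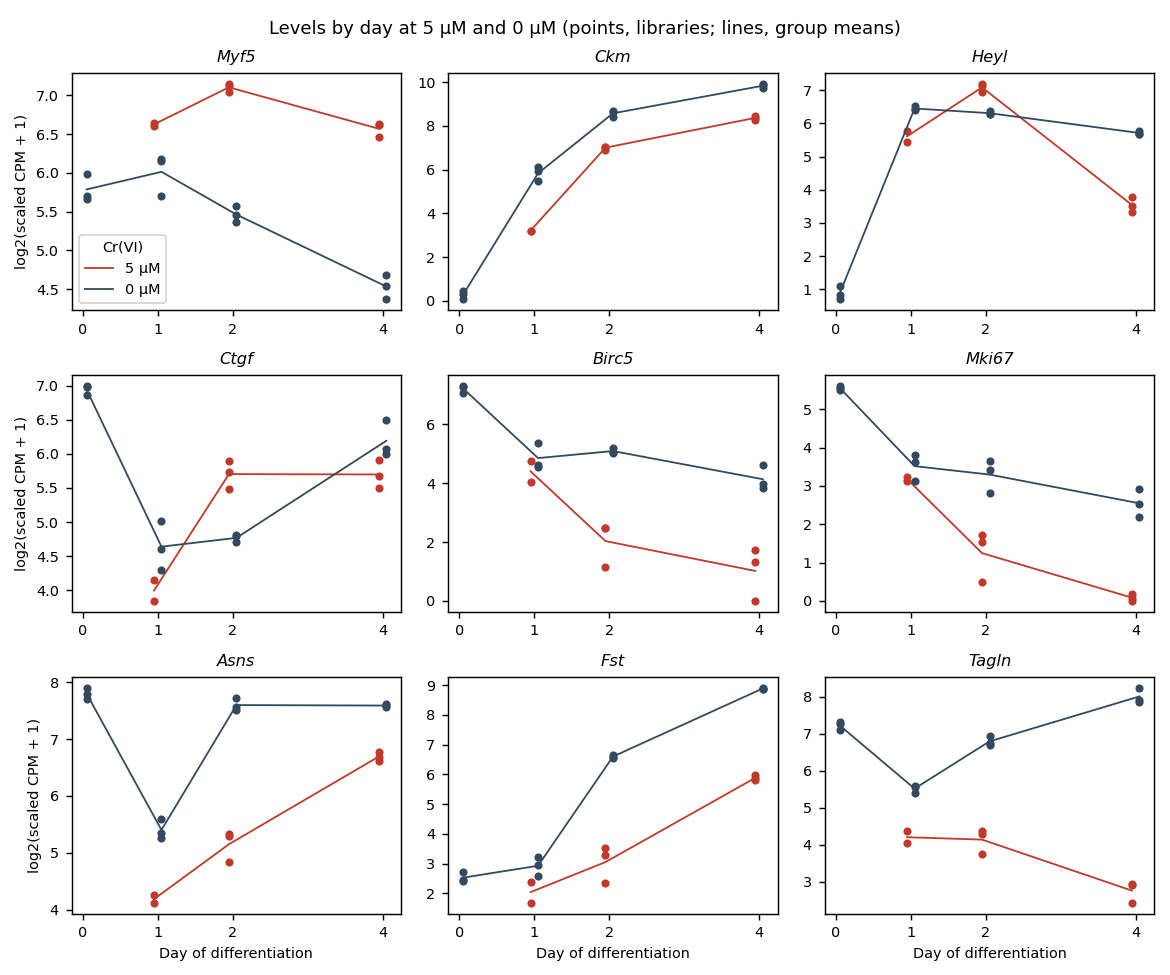
Levels of 9 genes by day of differentiation (horizontal axes, days 0, 1, 2 and 4; vertical axes, log2(scaled CPM + 1)) at 5 µM (red) and 0 µM (dark blue), with a point for each library and lines through the group means. On day 1 the 5 µM group has 2 libraries, since the one with transcripts read nowhere else is left out. Birc5 and Mki67 part from the untreated cells between days 1 and 2, and Heyl and Ctgf cross them.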

How the data were processed

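Total RNA was taken with TRIzol and sequenced from Illumina TruSeq RNA libraries, per the labels' protocols. The deposited values are a signal the authors named CPM, per the labels. Divided by 1 constant for its library, each value gave a whole read count (100% within 0.02 of a whole read). Columns summed to 892246 to 1079916, so the authors had scaled the libraries further. They are called scaled CPM, 1 read being worth 0.0400 to 0.0457 on day 2. How they did so, and the aligner, counting tool, build and strand, is not given in the sources used here.

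Of 48709 genes listed, 12946 passed a filter of 1 scaled CPM or more in 3 or more libraries. Values as log2(scaled CPM + 1) were fitted with limma 3.58.1 (R 4.3.3), with a mean per group, 28 libraries, 18 residual degrees of freedom and a variance trend, which differs from a fit on the 6 libraries in its shared estimate of spread. P values were Benjamini-Hochberg adjusted over all genes, and words such as "rose" and "lower" are kept for genes with an adjusted p below 0.05. The same fit gave 5 against 2 µM, 2 against 0 µM and the changes of effect between days. edgeR 4.0.16 and DESeq2 1.42.0 were run on recovered reads as alternatives.

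The comparison, the 32 key genes and the 43 lists (928 entries, 851 tested) were chosen with earlier results of these data known. Other named genes were the 12 largest rises and 12 largest falls among called genes with a mean of at least 5 scaled CPM in the higher group and replicates without overlap, and up to 4 members of a list called in its main direction and 2 in the other. Not every gene these rules name is reported here. Heyl and Ctgf were taken for the change between days 1 and 2 after their values were seen.

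On data simulated for this comparison (12946 genes, 200 changed), limma recovered 77% of 2-fold and 86% of 4-fold changes, and 10.4% of its calls were false. edgeR recovered 76% and 85% (10.6% false) and DESeq2 79% and 91% (17.5% false). These shares hold for 200 changed genes, as many raised as lowered. They were not measured for a comparison with 3329 genes called, and so do not carry over to it. Promoter windows are RefSeq's for GRCm38.p6, and 5 of 6 genes looked up had one. Their coordinates were not used with the deposited table. Motif searches covered both strands.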

Additional observations from a re-analysis of the deposited data

Results flagged for a closer look

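The effects of 5 µM on day 2 and on day 1 differed for 14 of the 32 key genes in the test itself (limma, adjusted p below 0.05). Of all genes, 2.67% had a higher effect on day 2 and 2.59% a lower one. The difference is given as the log2 effect on day 2 minus that on day 1. Among muscle genes it was 1.03 for Myf5, 0.74 for myomaker (Tmem8c), 0.97 for Acta1 and 1.05 for Ckm. Among cell cycle, repair and p53 genes it was 0.83 for Ccnd1, −1.71 for Mki67, −2.61 for Birc5, −1.81 for Fancd2 and −0.49 for Mdm2, the last no longer called with all 30 libraries (limma, adjusted p = 0.0947). It was −1.23 for Asns, 0.92 for Hspa5, 0.67 for Hspb1, −1.34 for Tagln and −2.66 for Fst. Heyl (1.62) and Ctgf (1.58), chosen after their values were seen, were lower at 5 µM on day 1 and higher on day 2.

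Between days 2 and 4 the effect of 5 µM differed for 15 of the 32 key genes, and for 25.7% of all genes. The difference is given as the effect on day 4 minus that on day 2. It was −0.78 for Myod1, −0.53 for Mef2c, −0.81 for Myh3 and −2.50 for Cdkn1c. Among stress genes it was 2.46 for Nqo1, 1.35 for Hmox1, 3.10 for Gstm1, 1.86 for Mt1, 2.64 for Mt2, 1.55 for Asns, 3.02 for Ddit3, −0.33 for Hspa5 and 0.45 for Hspb1. It was −3.96 for Col1a1 and −2.60 for Tagln. Mef2c was no longer called by limma with all 30 libraries (adjusted p = 0.0575) or a pseudocount of 0.25 (0.0676). Hspb1 was no longer called by limma with all 30 libraries (adjusted p = 0.0703) or median-of-ratios scaling (0.0772). Its call was also lost with a pseudocount of 0.25 (limma, adjusted p = 0.0549) or of 5 (0.053).

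A pair of libraries outside the comparison carried transcripts read nowhere else, at 5 scaled CPM or more there and below 1 in every other library. There were 185 such genes in 5 µM day 1 replicate 3 and 82 in 2 µM day 1 replicate 1. Their source was not tested.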

How the results depend on the processing

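Over 24 other settings, the number of genes called in the day 2 comparison of 5 µM with 0 µM stayed within 1.5 times that reported, at 1037 to 1801 higher and 1509 to 2216 lower. For 5 against 2 µM and for the changes between days, 6 settings were run, without left-out replicates, edgeR or DESeq2, and the counts also stayed within 1.5 times. Leaving out each replicate in turn gave 1037 to 1244 higher and 1509 to 1672 lower, and a difference in mitochondrial share of 2.11 to 2.96 percentage points. edgeR called 1410 higher and 1725 lower, and DESeq2 1484 and 1854. Quantile normalization raised the share of higher among called genes to 51.2%, against 43.3% as reported. Deviations of replicates from their group means correlated at −0.020 to 0.053 between same-numbered libraries at 5 and 0 µM on day 2. Between differently numbered ones the range was −0.072 to 0.050. With 3 replicates per group these values cannot show whether the numbers pair the libraries. A replicate block gave 1445 higher and 1897 lower in 28 libraries and 1519 and 1964 in 6. Of 195 named genes called, 44 lost the call under at least 1 setting, 34 of them under a setting other than a left-out replicate. Hmox1, not called, reversed without 5 µM replicate 3, with −0.0091 to 0.191 over the 6 left-out replicates. Among the key genes whose change between days was not called as reported, the reversals were Tnnt3 for days 1 to 2 with a pseudocount of 0.25 (0.016) and, for days 2 to 4, Mcm5 with median-of-ratios scaling (−0.034) and with a pseudocount of 0.25 (−0.044), Fancd2 with the same pseudocount (−0.895), Mki67 (0.134) and Birc5 (0.397) with a pseudocount of 5, and Chrna1 (0.076) and Cdkn1a (0.074) with quantile normalization. The cause was not tested. Low genes varied between replicates of similar depth (22.1 to 25.3 M reads). Where a day 2 replicate at 5 or 0 µM had 11 to 20 reads, another of its group had 0 in 22.0% of 7596 pairs. The source of these zeros was not tested.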
